A study of Mus musculus with 30 samples.

Results

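The IL-1 family was followed through 10 genes, picked by gene symbol: the agonists Il1a, Il1b, Il18 and Il33, the IL-36 cytokines Il1f6, Il1f8 and Il1f9 (IL-36α, IL-36β and IL-36γ), the antagonist Il1rn, the signalling receptor Il1r1 and the decoy receptor Il1r2. Every probe set that names 1 of these genes was taken, which gave 13 of 45037 probe sets (10 of 22121 gene symbols), and 12 of the 13 were among the 36029 probe sets tested. The probe set not tested is the dimmer of 2 for Il1r1, with a mean of 2.81 on the log2 scale over all arrays. Il1rn has 3 tested probe sets and each other gene has 1, so all 10 genes were measured, and for Il1rn the values below are those of its brightest probe set.

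The arrays hold back skin of female mice, 8 to 12 weeks old, that were wild type (WT) or lacked D6, a receptor that binds and clears inflammatory CC chemokines. The shaved skin was painted 3 times, 24 h apart, with 50 μM of the phorbol ester TPA, and was taken 1, 2, 4 or 6 days later. Controls of each genotype, called day 0 here, had acetone alone, and their titles call them untreated. Each of the 10 genotype-by-day groups has 3 mice, 30 arrays in all, and each level below is a log2 intensity, so that a difference of 1 is a 2-fold change.

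IL-1α and IL-1β signal through IL-1R1, while IL-1R2 binds them without signalling and the IL-1 receptor antagonist, the product of Il1rn, blocks the receptor. IL-18, IL-33 and the IL-36 cytokines act through receptors of their own that use the same adaptor, MyD88, and the IL-36 cytokines are made mainly in epithelia such as the epidermis. IL-1α and IL-33 are stored in epithelial and stromal cells, and IL-1β and IL-18 are made as precursors that are cut before release, so that a transcript level does not give the level of active cytokine.

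The genotype labels were checked on the D6 gene, Ccbp2 on this array, in 15 arrays of each genotype. It has 3 probe sets, of which the dimmest ran from 4.15 to 5.76 in WT and from 3.30 to 3.86 in D6-deficient skin, with no overlap, a difference of -1.41 (SE 0.11, adjusted p = 1.3e-08) as a mean over the 5 days. Its D6-deficient values lie near the lowest mean of any tested probe set (3.72), so the size of this difference is not exact. Another ran from 5.14 to 6.26 and from 4.55 to 5.42, a difference of -0.69 (SE 0.10, adjusted p = 5.2e-05), with overlap. The brightest was at 6.69 to 8.54 and 6.59 to 8.09 (-0.07, SE 0.11, adjusted p = 0.80); where the deletion lies is not given, and a probe set outside it checks nothing. The tissue label was checked on marker genes: the summed level of 7 keratinocyte genes was 14.84, 14.80 and 14.76 in WT day-0 skin, with Krt14 the brightest gene over all arrays (24.4% of the sum). Intensities of different probe sets do not rank transcripts by abundance. The lowest means over all arrays were 9.97 for Trp63 among the keratinocyte genes, 11.52 for Pdgfra among 4 fibroblast genes and 11.29 for Myh4 among 3 skeletal muscle genes, so none of these lists was near the lower end of the scale. All values are from whole skin, in which fewer cells that make a transcript and less transcript per cell cannot be told apart.

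TPA moved most of the family in both genotypes. A difference passes the test here where its p from limma, adjusted over all tested probe sets, is under 0.05, and each difference has its standard error (SE). In WT skin 8 of the 10 members passed the test at day 1 (7 higher, 1 lower), where 24.0% of all tested probe sets did, 8 at day 2 (7 higher, 1 lower; 26.1% of all), 9 at day 4 (all higher; 39.1% of all) and 6 at day 6 (5 higher, 1 lower; 22.1% of all). In D6-deficient skin 6 members passed at day 1 (5 higher, 1 lower; 36.3% of all), 7 at day 2 (all higher; 38.1% of all), 9 at day 4 (8 higher, 1 lower; 41.1% of all) and 4 at day 6 (3 higher, 1 lower; 31.7% of all). The median change of the 10 members at days 1, 2, 4 and 6 was 1.36, 2.52, 2.46 and 0.8 in WT skin. In D6-deficient skin it was 0.56, 1.78, 1.47 and 0.06, with 5 members above 0 and 5 below at day 6. The median over all tested probe sets stayed between -0.016 and 0.025 in every comparison with day 0 or between genotypes. Without 1 array at a time the day-6 count in D6-deficient skin went down to 2, and the same count in WT skin down to 4; the arrays are named with the members below. With only the arrays of the 2 groups in the fit, Il1f8 in D6-deficient skin at day 4 did not pass (adjusted p = 0.081), while Il1b at day 6 (adjusted p = 0.038) and Il18 at day 4 (adjusted p = 0.04) in WT skin and Il33 at day 1 in D6-deficient skin (adjusted p = 0.024) did. The members fell into groups by time course: Il1a and the IL-36 cytokines Il1f6 and Il1f8 were highest at day 2 or day 1, Il1b, Il33, Il1rn and Il1f9 had their highest group mean at day 4, and the receptors Il1r1 and Il1r2 passed the test as higher at day 4 alone.

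**Figure D1:**
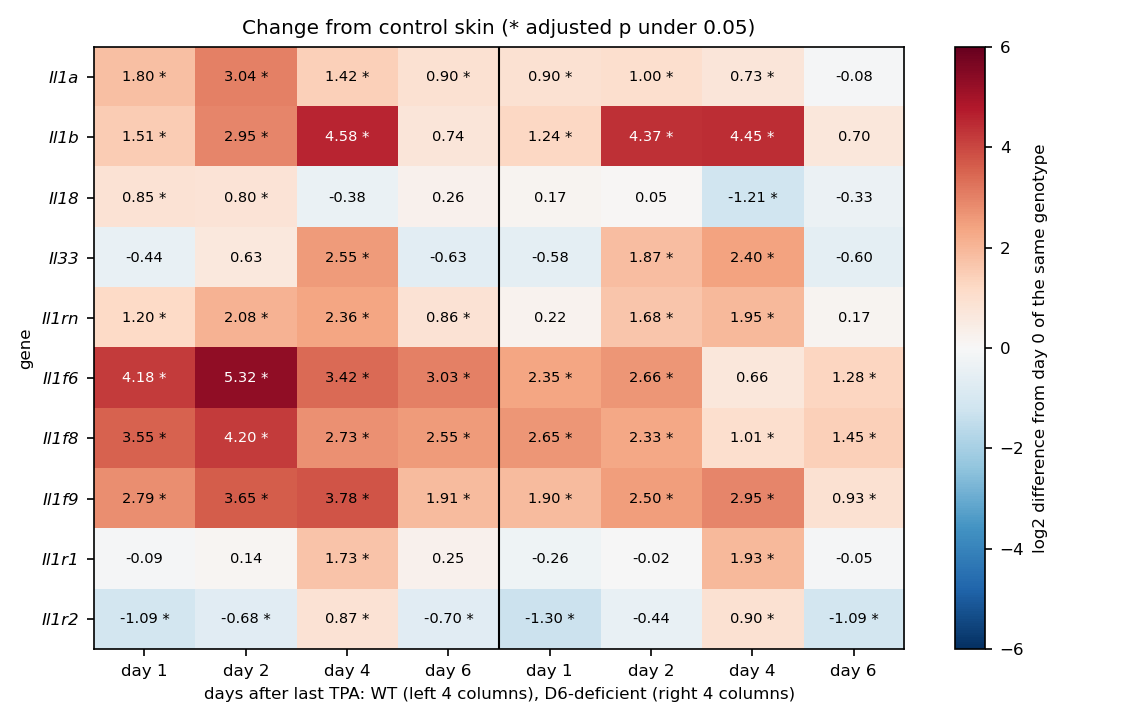
Change from day 0 (log2, color and number) of the 10 members at days 1, 2, 4 and 6 in WT and D6-deficient skin, with an asterisk where the adjusted p is under 0.05.

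Il1a peaked at day 2 in WT skin, while in D6-deficient skin days 1, 2 and 4 were close, with means of 7.01, 7.11 and 6.85. The WT mice had 5.78, 4.89 and 5.48 (day 0), 7.51, 6.93 and 7.09 (day 1), 9.01, 7.74 and 8.53 (day 2), 6.71, 6.75 and 6.94 (day 4), and 6.12, 6.23 and 6.51 (day 6). D6-deficient mice had 6.54, 5.81 and 5.99 (day 0), 7.07, 6.74 and 7.22 (day 1), 7.65, 6.68 and 7.01 (day 2), 6.84, 6.88 and 6.81 (day 4), and 6.05, 5.58 and 6.46 (day 6). WT day 2 was the highest of the 10 groups and overlapped with none, WT day 0 was the lowest, and D6-deficient day 2 overlapped with days 1 and 4 of both genotypes. The change from day 0 to day 2 was 3.04 (SE 0.28, adjusted p = 3.8e-08), 8.25-fold, in WT skin and 1.00 (SE 0.28, adjusted p = 0.0072) in D6-deficient skin. At day 2 all 3 D6-deficient mice were below all 3 WT mice, a difference of -1.32 (SE 0.28, adjusted p = 0.0059), whereas at day 0 all 3 were above (difference 0.73 (SE 0.28, adjusted p = 0.22), not past the threshold). The changes to day 2 thus differed by -2.05, the smaller being in D6-deficient skin (SE 0.40, adjusted p = 0.0029), which passed the test with each array left out in turn.

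Several smaller calls for Il1a rested on single arrays. The day-2 difference between genotypes did not pass without WT day 2 replicate 1 (-1.02, adjusted p = 0.066) or without D6-deficient day 2 replicate 2 (-1.10, adjusted p = 0.062). In D6-deficient skin, Il1a rose by 0.90 at day 1 and 0.73 at day 4 (adjusted p = 0.015 and 0.042). The day-1 call ended without D6-deficient day 0 replicate 2 (0.75, adjusted p = 0.076), day 0 replicate 3 (0.84, adjusted p = 0.053) or day 1 replicate 3 (0.80, adjusted p = 0.058), and the day-2 call without D6-deficient day 2 replicate 1 (0.73, adjusted p = 0.064). The day-4 call ended without day 0 replicate 2 (0.58, adjusted p = 0.16) or replicate 3 (0.67, adjusted p = 0.11), or any of the day-4 arrays, replicate 1 (0.74, adjusted p = 0.076), replicate 2 (0.72, adjusted p = 0.094) or replicate 3 (0.75, adjusted p = 0.075). WT Il1a was still up by 0.90 (SE 0.28, adjusted p = 0.025) at day 6, a call that ended without WT day 0 replicate 2 (0.65, adjusted p = 0.14), day 6 replicate 2 (0.93, adjusted p = 0.066) or day 6 replicate 3 (0.79, adjusted p = 0.082).

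Il1b rose furthest at day 4 in WT skin and was near that level by day 2 in D6-deficient skin. WT mice had 7.20, 6.92 and 7.45 (day 0), 9.20, 8.49 and 8.42 (day 1), 9.88, 11.17 and 9.39 (day 2), 11.70, 11.79 and 11.84 (day 4), and 8.12, 8.09 and 7.58 (day 6). The D6-deficient values on these days were 7.48, 7.51 and 7.59 (day 0), 8.52, 8.52 and 9.24 (day 1), 12.11, 12.05 and 11.52 (day 2), 11.88, 12.26 and 11.79 (day 4), and 7.74, 8.75 and 8.19 (day 6). By group mean, D6-deficient day 4, D6-deficient day 2 and WT day 4 came first, each overlapping with the next, and WT day 2 followed, below all 3 without overlap; its mice were also the most spread, with replicate 2 at 11.17. The change to day 4 was 4.58 in WT skin, 24-fold (adjusted p = 1.8e-10), and 4.45 in D6-deficient skin, 21.9-fold (adjusted p = 1.7e-10), and the genotypes overlapped. As a mean over the 5 days Il1b was 0.53 (SE 0.14, adjusted p = 0.029) higher in D6-deficient skin, most of which lay at day 2, with 1.75 (adjusted p = 0.0013), beside 0.33, 0.06, 0.20 and 0.30 at days 0, 1, 4 and 6, none of which passed. The change from day 0 to day 2 was larger in D6-deficient skin by 1.42 (SE 0.45, adjusted p = 0.071), which did not pass the test with all arrays and did without WT day 2 replicate 2 (1.93, adjusted p = 0.0031). At day 6 the change was 0.74 (SE 0.32, adjusted p = 0.1) in WT and 0.70 (SE 0.32, adjusted p = 0.1) in D6-deficient skin, the last past the threshold only without D6-deficient day 6 replicate 1 (0.94, adjusted p = 0.049).

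The summed neutrophil markers were high at days 2 and 4, as Il1b was, but not in step with it on every array. Single genes of the sum moved in opposite directions. In WT skin at day 2 Lcn2 was up by 3.75 (adjusted p = 9.8e-06) and Mpo changed by -1.48 (adjusted p = 0.03). From day 2 to day 4 in D6-deficient skin, Ltf changed by -2.39 (adjusted p = 0.023), Camp by -1.97 (adjusted p = 0.025) and Cxcr2 by 2.22 (adjusted p = 2.1e-08). The summed level of 8 neutrophil genes (Lcn2 the brightest, 64.6% of the sum, and Mpo the lowest, mean 5.11) was 11.61, 12.76 and 10.59 in the WT mice of day 2 and 13.48, 13.43 and 13.79 in the D6-deficient mice. On day 4 it was 14.26, 13.85 and 14.28 (WT) and 14.48, 14.40 and 14.37 (D6-deficient), and in day-0 skin 9.69, 8.96 and 9.04 (WT) and 9.98, 9.29 and 10.06 (D6-deficient). At day 2 the WT mouse with the highest neutrophil sum, replicate 2, was also the one with the highest Il1b and Il33, and all 3 D6-deficient mice were above it in each. Between genotypes at day 2, 6 of the 8 neutrophil genes were higher in D6-deficient skin (median difference 2.42; 4.45% of all tested probe sets were called). Since Lcn2 is itself induced by IL-1, the sum was also taken over the other 7 genes: 9.46, 10.25 and 9.27 in WT against 11.38, 12.53 and 13.15 in D6-deficient skin at day 2. At day 4 it was 12.35, 11.64 and 12.63 in WT and 12.76, 12.63 and 12.59 in D6-deficient skin. Among the 3 D6-deficient mice of day 2, replicate 3 had the highest sum, with or without Lcn2, and the lowest Il1b (12.11, 12.05 and 11.52). The Il1b values of the other 2 mice were too close to order, since the smallest SD of a difference between 2 arrays was 0.25. At day 1 Il1b was up by 1.51 in WT skin (adjusted p = 0.0013), where the sum of the 8 genes was 9.83, 9.46 and 9.49, and in D6-deficient skin the mouse with the highest sum, replicate 2 (11.34), had less Il1b than replicate 3 (8.52 against 9.24).

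The genes closest to Il1b over the 30 arrays were Clec4e (r = 0.979), Clec4d (r = 0.977) and Tpd52 (r = 0.968), of which the first 2 encode lectins of myeloid cells. The summed level of 10 monocyte and macrophage genes (Lyz2 the brightest, 27.2% of the sum) was also higher in D6-deficient skin at day 2 without overlap, 15.59, 15.47 and 15.46 against 15.05, 15.15 and 15.01 in WT, and at day 0 it was lower, 14.50, 14.88 and 14.74 against 15.22, 15.22 and 15.09. At day 4, when Il1b and Il33 were highest, this sum was again lower in D6-deficient skin without overlap. It ran from 14.71 to 14.79, against 14.9 to 15.16 in WT. Many single probe sets separated the genotypes in the same way. All D6-deficient mice were above all WT mice for 10.4% of tested probe sets at day 2. They were all below for 10.8% at day 0 and for 7.37% at day 4. The sum does not show whether its single genes moved in the same direction. Whether the number of neutrophils, monocytes or macrophages accounts for the level of Il1b or Il33 was not tested.

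Il33 followed Il1b more closely than Il1a or Il18 did (r = 0.89 over 30 arrays, against 0.49 for Il1a and -0.37 for Il18 with Il1b). Of the IL-36 cytokines, Il1f9 was nearly as close to Il1b (r = 0.85), and Il1f6 and Il1f8 were not (r = 0.45 and 0.43). WT mice had 8.75, 9.37 and 8.79 (day 0), 9.13, 8.26 and 8.20 (day 1), 9.73, 10.14 and 8.92 (day 2), 11.47, 11.11 and 12.00 (day 4), and 8.61, 8.03 and 8.39 (day 6). D6-deficient mice had 9.07, 9.34 and 9.08 (day 0), 8.59, 8.86 and 8.31 (day 1), 11.10, 10.87 and 11.13 (day 2), 11.61, 11.53 and 11.54 (day 4), and 8.28, 8.99 and 8.42 (day 6). Both genotypes were highest at day 4, where they overlapped, and D6-deficient day 2 came next, above all WT day-2 mice; all other groups overlapped with their neighbors in the order of means. Il33 rose by 2.55 (SE 0.28, adjusted p = 1.3e-07) at day 4 in WT skin, and in D6-deficient skin by 1.87 (SE 0.28, adjusted p = 9.9e-06) at day 2 and 2.40 (SE 0.28, adjusted p = 2.2e-07) at day 4. In WT skin the day-2 change was 0.63 (SE 0.28, adjusted p = 0.099), past the threshold only without WT day 2 replicate 3 (0.96, adjusted p = 0.013). The day-2 difference between genotypes was 1.44 (SE 0.28, adjusted p = 0.002), and the change from day 0 differed by 1.24 (SE 0.39, adjusted p = 0.064), which passed only without WT day 2 replicate 2 (1.52, adjusted p = 0.024) or with the lowest 50% of probe sets left out (adjusted p = 0.049). Sykb (r = 0.959), Cd300lf (r = 0.958) and Mmp9 (r = 0.956) were closest to Il33 over the 30 arrays.

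Il18 was the steadiest member, with a range of 2.31 over the 30 arrays, and the only cytokine of the 10 that was lowest at day 4 in both genotypes. Its values were 10.58, 10.47 and 10.51 in WT skin at day 0, 11.61, 11.27 and 11.22 (day 1), 11.43, 11.10 and 11.44 (day 2), 9.96, 10.30 and 10.18 (day 4), and 10.78, 10.75 and 10.80 (day 6). In D6-deficient skin they were 11.03, 10.79 and 10.78 (day 0), 10.95, 10.79 and 11.38 (day 1), 10.91, 10.94 and 10.89 (day 2), 9.30, 9.70 and 9.97 (day 4), and 10.84, 9.85 and 10.92 (day 6). WT day 1 and day 2 were the highest groups, and the day-4 groups, which overlapped with each other, were below all others except 1 D6-deficient mouse at day 6 (9.85). Il18 rose at day 1 and day 2 in WT skin, by 0.85 (SE 0.21, adjusted p = 0.0038) and 0.80 (SE 0.21, adjusted p = 0.0052), where the D6-deficient changes were 0.17 and 0.05 (adjusted p = 0.55 and 0.88). At day 4 it fell in D6-deficient skin, a change of -1.21 (SE 0.21, adjusted p = 4.2e-05), beside -0.38 (SE 0.21, adjusted p = 0.15) in WT skin. No difference between genotypes in level or in change passed the test for Il18 in the fit of all arrays; at day 2, where the D6-deficient mice were all below the WT mice, the difference was -0.41 (SE 0.21, adjusted p = 0.35).

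**Figure D2:**
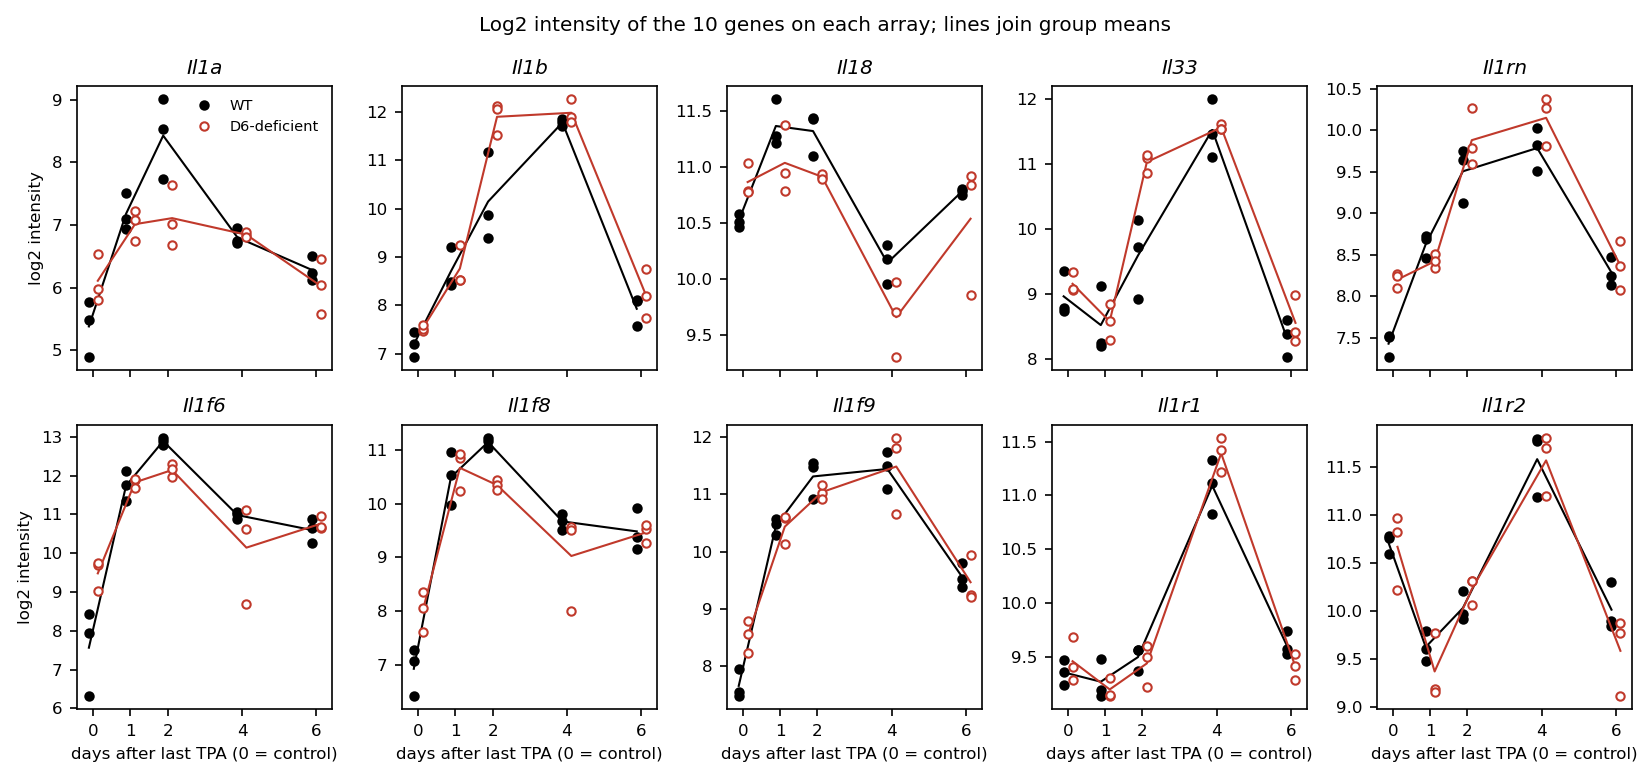
Log2 intensity of each member in each of the 30 arrays against day after TPA, WT and D6-deficient, 3 mice per group.

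Il1f6, of the IL-36 cytokines, had the largest change of the family in WT skin, where in D6-deficient skin that was Il1b. Its values were 8.43, 6.32 and 7.95 in WT skin at day 0, 12.12, 11.33 and 11.77 (day 1), 12.98, 12.79 and 12.90 (day 2), 11.02, 10.88 and 11.06 (day 4), and 10.26, 10.87 and 10.66 (day 6). The D6-deficient mice had 9.68, 9.02 and 9.74 (day 0), 11.90, 11.67 and 11.91 (day 1), 12.31, 11.96 and 12.17 (day 2), 8.70, 10.62 and 11.11 (day 4), and 10.96, 10.65 and 10.67 (day 6). WT day 0 was the lowest group and D6-deficient day 0 the next, without overlap between them, while WT day 2 was the highest and overlapped with none. At day 2 Il1f6 was up by 5.32 (SE 0.44, adjusted p = 4.9e-09) in WT skin, 40.1-fold, and by 2.66 (SE 0.44, adjusted p = 3.5e-05) in D6-deficient skin, 6.34-fold. WT day 0 replicate 2, at 6.32, adds to this fold: without it the WT change was 4.70 (adjusted p = 3.3e-08), 26.0-fold. The changes to day 2 differed by -2.66 (SE 0.62, adjusted p = 0.0099), a call that held with each array left out (-2.04, adjusted p = 0.034, without WT day 0 replicate 2). The day-0 levels differed as well: at day 0 Il1f6 was 1.92 (SE 0.44, adjusted p = 0.024) higher in D6-deficient skin, and at day 2 the difference was -0.74 (SE 0.44, adjusted p = 0.45), with all 3 D6-deficient mice below all 3 WT mice. The day-0 call ended without WT day 0 replicate 2 (1.29, adjusted p = 0.15), D6-deficient day 0 replicate 1 (1.81, adjusted p = 0.12) or replicate 3 (1.79, adjusted p = 0.11).

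At later days Il1f6 stayed up in WT skin, by 3.42 at day 4 and 3.03 at day 6 (adjusted p = 1.3e-06 and 3.9e-05), and by 2.79 and 2.41 without WT day 0 replicate 2 (adjusted p = 1.2e-05 and 0.00031). In D6-deficient skin the day-4 change was 0.66 (SE 0.44, adjusted p = 0.23), with 1 mouse, replicate 1, at 8.70, and without that array it was past the threshold (1.39, adjusted p = 0.004). The difference in change at day 4, -2.75 (SE 0.62, adjusted p = 0.036), ended without any 1 of 8 arrays, with adjusted p from 0.056 to 0.11. These were WT day 0 replicate 2 (-2.13, adjusted p = 0.09) and replicate 3 (-2.95, adjusted p = 0.056), WT day 4 replicate 1 (-2.74, adjusted p = 0.068), replicate 2 (-2.81, adjusted p = 0.083) and replicate 3 (-2.72, adjusted p = 0.062), D6-deficient day 0 replicate 1 (-2.65, adjusted p = 0.11) and replicate 3 (-2.63, adjusted p = 0.1), and D6-deficient day 4 replicate 1 (-2.03, adjusted p = 0.066). At day 6 Il1f6 was up by 1.28 (SE 0.44, adjusted p = 0.027) in D6-deficient skin, which did not hold without D6-deficient day 0 replicate 2 (1.05, adjusted p = 0.12), day 6 replicate 1 (1.18, adjusted p = 0.082) or day 6 replicate 2 (1.33, adjusted p = 0.053).

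Il1f8 ran in parallel with Il1f6 (r = 0.98 over 30 arrays). WT mice had 7.29, 6.43 and 7.09 (day 0), 10.96, 9.97 and 10.53 (day 1), 11.17, 11.03 and 11.22 (day 2), 9.68, 9.52 and 9.81 (day 4), and 9.16, 9.92 and 9.38 (day 6). D6-deficient mice had 8.07, 7.61 and 8.36 (day 0), 10.84, 10.23 and 10.92 (day 1), 10.44, 10.35 and 10.24 (day 2), 8.01, 9.57 and 9.51 (day 4), and 9.52, 9.26 and 9.60 (day 6). As for Il1f6, the 2 day-0 groups were the lowest and did not overlap, WT day 2 stood alone at the top, and D6-deficient day 4 held 1 low mouse, replicate 1. The rise to day 2 was 4.20 (SE 0.32, adjusted p = 1.3e-09) in WT skin and 2.33 (SE 0.32, adjusted p = 3.2e-06) in D6-deficient skin, 18.4-fold and 5.02-fold, and the changes differed by -1.88 (SE 0.45, adjusted p = 0.012), with each array left out as well. At day 0 the difference between genotypes was 1.08 (SE 0.32, adjusted p = 0.084). By day 4 the change in D6-deficient skin was 1.01 (SE 0.32, adjusted p = 0.012), a call that ended without D6-deficient day 0 replicate 2 (0.81, adjusted p = 0.072), day 4 replicate 2 (0.74, adjusted p = 0.094) or day 4 replicate 3 (0.77, adjusted p = 0.083), and was 1.52 (adjusted p = 9.6e-05) without day 4 replicate 1. The day-4 difference in change was -1.72 (SE 0.45, adjusted p = 0.078), and passed only without D6-deficient day 4 replicate 3 (-1.96, adjusted p = 0.041).

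Il1f9 rose with the other IL-36 cytokines at day 1 and stayed high at day 4, when Il1f6 and Il1f8 had come down. In WT skin it had 7.95, 7.48 and 7.55 (day 0), 10.56, 10.30 and 10.48 (day 1), 11.48, 11.55 and 10.91 (day 2), 11.49, 11.09 and 11.75 (day 4), and 9.38, 9.81 and 9.53 (day 6). In D6-deficient skin it had 8.79, 8.24 and 8.57 (day 0), 10.58, 10.13 and 10.60 (day 1), 11.03, 10.92 and 11.16 (day 2), 10.66, 11.99 and 11.80 (day 4), and 9.25, 9.21 and 9.95 (day 6). The day-4 and day-2 groups of both genotypes came first and overlapped, the day-1 groups next, then day 6, and the 2 day-0 groups last, WT below D6-deficient without overlap. From day 2 to day 4 the change in WT skin was 0.13 for Il1f9 (adjusted p = 0.82), beside -1.91 for Il1f6 (adjusted p = 0.0035) and -1.47 for Il1f8 (adjusted p = 0.002). The change from day 0 to day 4 was 3.78 (SE 0.26, adjusted p = 1.8e-10) in WT skin and 2.95 (SE 0.26, adjusted p = 4.7e-09) in D6-deficient skin. At day 2 the changes differed by -1.15 (SE 0.37, adjusted p = 0.077), past the threshold without WT day 2 replicate 3 (-1.35, adjusted p = 0.045). In D6-deficient skin at day 6, Il1f9 was up by 0.93 (SE 0.26, adjusted p = 0.0091), which ended without D6-deficient day 0 replicate 2 (0.79, adjusted p = 0.052) or day 6 replicate 3 (0.69, adjusted p = 0.06).

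The summed level of keratinocyte markers was highest at day 2, near the peak of Il1a, Il1f6 and Il1f8, but did not follow these members in every group, and its genes moved in opposite directions. For the 7 keratinocyte genes it was 14.84, 14.80 and 14.76 (WT) and 15.38, 15.26 and 15.39 (D6-deficient) in day-0 skin. It was 16.32, 16.32 and 15.99 (WT) and 16.27, 16.24 and 16.29 (D6-deficient) on day 2, and 15.46, 15.53 and 15.41 (WT) and 14.69, 15.13 and 15.25 (D6-deficient) on day 4. The D6-deficient mice were all above the WT mice at day 0, with 4 of the 7 genes called higher (1.57% of all tested probe sets were called), and all below them at day 4. At day 2 the sums of the genotypes overlapped, while Il1a, Il1f6 and Il1f8 were lower in all 3 D6-deficient mice, as were 11.9% of all tested probe sets. Of these members only Il1a passed the test between genotypes at day 2 in the fit of all arrays. By day 4 the D6-deficient sum was below that of day 0 in all 3 mice, while Il1a and Il1f8 were up by 0.73 and 1.01 with the calls described above. The sum hides 2 groups of keratins at day 4: Krt16 and Krt6a were up by 7.05 and 5.19 in WT and 4.24 and 3.72 in D6-deficient skin, while Krt10 and Krt1 changed by -4.27 and -2.52 in WT and -5.52 and -4.46 in D6-deficient skin, all past the threshold.

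Replicate 1 of D6-deficient day 4, the lowest of its group for Il1f6, Il1f8 and Il1f9, was also the lowest for the keratinocyte sum (14.69). In the change from day 0 to day 4, 3 of the 7 keratinocyte genes were called lower in D6-deficient skin (median -1.36; 0.608% of all tested probe sets were called), and 1 in the change to day 2 (median -0.63; 5.40% of all). Outside the members, the 3 genes closest to Il1a over the 30 arrays were 2310014L17Rik (r = 0.896), Lass3 (r = 0.892) and Klk11 (r = 0.889), and those closest to Il1f9 were Glrx (r = 0.977), Cnfn (r = 0.977) and Endou (r = 0.974). For Il1f6 and Il1f8 the closest was Il1f5, which encodes the IL-36 receptor antagonist (r = 0.973 and r = 0.979), then Klk8 (r = 0.959 and r = 0.973), and then Lypd3 for Il1f6 (r = 0.946) and Cbr3 for Il1f8 (r = 0.946). Other markers moved too: Cd207, of Langerhans cells, was lower in D6-deficient skin at day 2 by -2.38 (adjusted p = 0.00041), and its change from day 0 differed by -2.75 (adjusted p = 0.0034), while the other 2 genes of its list, Itgax (0.46, adjusted p = 0.13) and Flt3 (0.11, adjusted p = 0.76), did not pass between genotypes at day 2. The mean sum of the 3 skeletal muscle genes went from 15.56 at day 0 to 14.55 at day 2 and 14.86 at day 4 in WT skin, and from 15.39 to 14.14 and 14.58 in D6-deficient skin. Whether the differences in Il1a and the IL-36 cytokines follow the share of any of these cells was not tested.

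**Figure D3:**
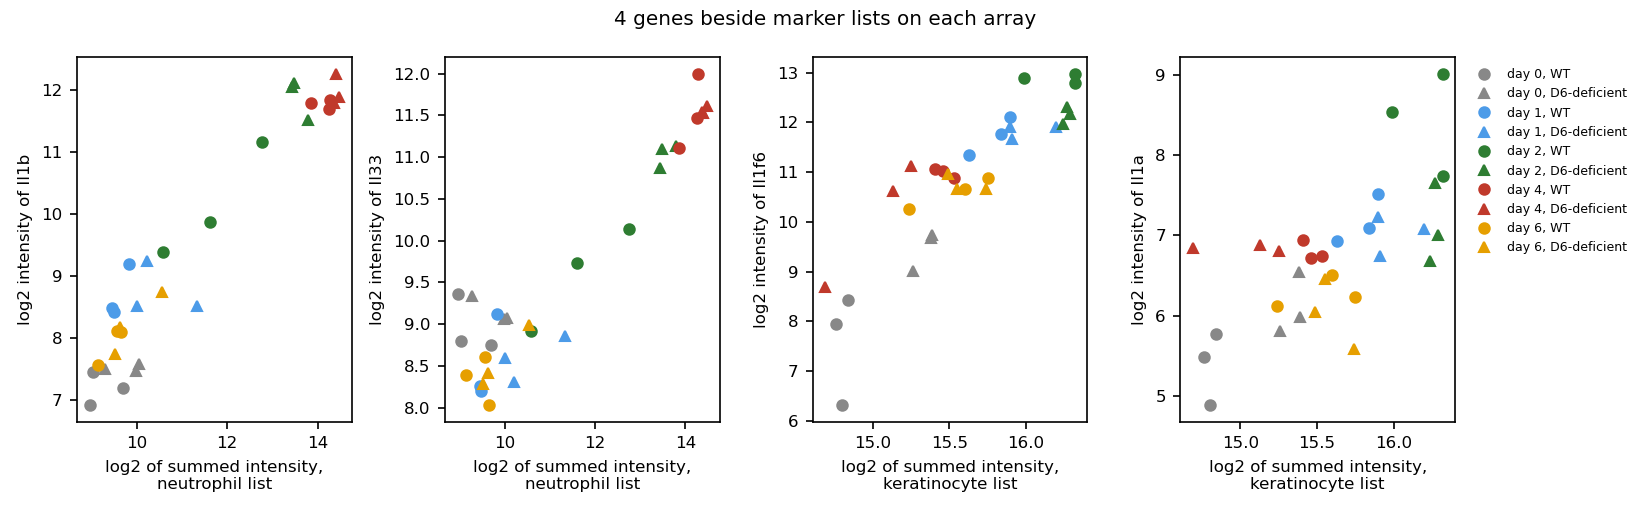
Log2 intensity of Il1b and Il33 against the log2 of the summed intensity of the neutrophil list, and of Il1f6 and Il1a against that of the keratinocyte list, 1 point per array (circles WT, triangles D6-deficient, colored by day).

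Some of the members are neighbors in the genome. Il1f8, Il1f9 and Il1f6 are direct neighbors on chromosome 2, with Il1f5 and Il1f10 between Il1f6 and Il1rn, and Il1a and Il1b are neighbors on the same chromosome, with 1093 protein-coding genes between Il1rn and Il1a. Il1r2 and Il1r1 are neighbors on chromosome 1, Il33 is on chromosome 19, and Il18 is on chromosome 9, as is the D6 gene, with 680 protein-coding genes between them. RefSeq start sites gave 13 promoter entries for 9 of the 10 members, with none for Il1f6, each from 250 bases before to 50 bases after the start. They were searched on both strands for TGANTCA, the TPA response element bound by AP-1, which reads the same on both strands, and for a loose 10-base pattern that begins with GGGA and ends with CC, as many NF-kappaB sites do. TGANTCA was found in 3 entries, at -12 to -6 in Il1a, -141 to -135 in the first entry of Il1rn and -236 to -230 in Il1f8, and it occurs in 7.81% of 32851 mouse promoters (2565). The second pattern was found in 2 entries, as GGGAGTGGCC at -54 to -45 in the same Il1rn entry and as GGGAGCTGCC at 12 to 21 in Il1f9. Neither has C or T at both bases before its last CC, as the stricter NF-kappaB consensus asks, a comparison made after the matches were seen. The loose pattern occurs in 20.7% of promoters (6810), and 413 promoters (1.26%) hold both patterns. The 4 entries with a match are printed because they carry it, and that of Il1b because it has none, in a gene that rose by up to 4.58 (all 5′ to 3′, build GRCm38.p6, RefSeq, matches in capitals). They lie at chr2:129309923-129310222, minus strand (Il1a), chr2:129371090-129371389, minus strand (Il1b), chr2:24336610-24336909, plus strand (Il1rn), chr2:24152922-24153221, plus strand (Il1f8), and chr2:24186226-24186525, plus strand (Il1f9).

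Il1a: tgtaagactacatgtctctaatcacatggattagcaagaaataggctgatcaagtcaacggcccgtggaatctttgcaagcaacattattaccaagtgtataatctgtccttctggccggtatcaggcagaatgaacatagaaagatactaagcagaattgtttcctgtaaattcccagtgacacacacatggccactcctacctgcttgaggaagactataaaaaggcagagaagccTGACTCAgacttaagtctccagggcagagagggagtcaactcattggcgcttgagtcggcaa

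Il1b: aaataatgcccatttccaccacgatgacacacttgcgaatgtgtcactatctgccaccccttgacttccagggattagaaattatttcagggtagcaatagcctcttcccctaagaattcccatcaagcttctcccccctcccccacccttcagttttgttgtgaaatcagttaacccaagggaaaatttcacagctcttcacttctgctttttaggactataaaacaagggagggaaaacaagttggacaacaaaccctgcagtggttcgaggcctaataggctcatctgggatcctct

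Il1rn: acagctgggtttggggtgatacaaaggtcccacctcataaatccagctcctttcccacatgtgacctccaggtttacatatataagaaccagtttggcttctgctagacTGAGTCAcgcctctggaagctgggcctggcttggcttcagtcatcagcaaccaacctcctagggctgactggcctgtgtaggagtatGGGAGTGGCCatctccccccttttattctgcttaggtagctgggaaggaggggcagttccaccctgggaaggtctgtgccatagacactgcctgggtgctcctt

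Il1f8: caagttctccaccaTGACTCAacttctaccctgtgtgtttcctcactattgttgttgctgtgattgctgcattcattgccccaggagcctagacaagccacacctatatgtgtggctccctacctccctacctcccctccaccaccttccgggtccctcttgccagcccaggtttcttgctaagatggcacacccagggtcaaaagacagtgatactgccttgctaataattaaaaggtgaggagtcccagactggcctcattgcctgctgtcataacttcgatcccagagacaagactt

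Il1f9: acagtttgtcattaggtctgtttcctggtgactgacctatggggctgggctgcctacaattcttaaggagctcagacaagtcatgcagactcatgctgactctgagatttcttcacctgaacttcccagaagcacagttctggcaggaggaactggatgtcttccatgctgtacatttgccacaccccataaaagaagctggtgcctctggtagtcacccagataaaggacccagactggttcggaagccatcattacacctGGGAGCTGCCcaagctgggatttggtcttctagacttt

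Whether any of these sites is bound or used in this skin was not tested.

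Il1rn, the antagonist, moved with Il1b (r = 0.95) and Il1f9 (r = 0.90 over 30 arrays). WT mice had 7.52, 7.26 and 7.51 (day 0), 8.69, 8.73 and 8.46 (day 1), 9.64, 9.75 and 9.13 (day 2), 9.82, 9.52 and 10.03 (day 4), and 8.25, 8.13 and 8.48 (day 6). D6-deficient mice had 8.26, 8.10 and 8.24 (day 0), 8.34, 8.51 and 8.42 (day 1), 10.27, 9.78 and 9.60 (day 2), 9.81, 10.38 and 10.27 (day 4), and 8.08, 8.36 and 8.67 (day 6). The day-4 and day-2 groups of both genotypes overlapped at the top, and WT day 0 was below every other group. Il1rn rose by 1.20 (SE 0.19, adjusted p = 5.3e-05) at day 1 in WT skin, where the change in D6-deficient skin was 0.22 (SE 0.19, adjusted p = 0.38). This depended on the probe set: the other 2 gave 1.06 (adjusted p = 0.0015) and -0.02 (adjusted p = 0.95) in D6-deficient skin at day 1, and 0.85 (adjusted p = 0.0093) and 0.04 (adjusted p = 0.91) at day 6, where the brightest gave 0.17 (adjusted p = 0.54). At day 4 it was up by 2.36 (SE 0.19, adjusted p = 1.1e-09) and 1.95 (SE 0.19, adjusted p = 1.3e-08). The day of the highest WT mean also depended on the probe set. The brightest had means of 9.51 at day 2 and 9.79 at day 4, and another had 8.78 and 9.14. The remaining one was higher at day 2, with 8.64 and 8.30 (change from day 2 to day 4 -0.35, adjusted p = 0.35). At day 0 Il1rn was higher in D6-deficient skin by 0.77 (SE 0.19, adjusted p = 0.034), and its other probe sets gave 0.54 (adjusted p = 0.30) and 0.62 (adjusted p = 0.17). This call ended with each of the 6 arrays left out: WT day 0 replicate 1 (0.82, adjusted p = 0.065), replicate 2 (0.69, adjusted p = 0.14) and replicate 3 (0.81, adjusted p = 0.077), and D6-deficient day 0 replicate 1 (0.74, adjusted p = 0.13), replicate 2 (0.82, adjusted p = 0.052) and replicate 3 (0.75, adjusted p = 0.12).

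The receptor Il1r1 changed at a single time, day 4. WT mice had 9.47, 9.36 and 9.24 (day 0), 9.48, 9.19 and 9.13 (day 1), 9.56, 9.57 and 9.37 (day 2), 11.33, 10.83 and 11.12 (day 4), and 9.74, 9.52 and 9.57 (day 6). D6-deficient mice had 9.41, 9.68 and 9.28 (day 0), 9.14, 9.31 and 9.15 (day 1), 9.60, 9.22 and 9.50 (day 2), 11.54, 11.21 and 11.42 (day 4), and 9.41, 9.52 and 9.28 (day 6). The 2 day-4 groups overlapped with each other and were above all other groups, whose mice ran from 9.13 to 9.74. The day-4 rise was 1.73 (SE 0.14, adjusted p = 9.4e-10), 3.33-fold, in WT and 1.93 (SE 0.14, adjusted p = 1e-10), 3.82-fold, in D6-deficient skin. At day 2, when Il1b was already up, Il1r1 was at 0.14 (adjusted p = 0.48) and -0.02 (adjusted p = 0.93) from day 0. Socs3 (r = 0.967), A4galt (r = 0.967) and Ppbp (r = 0.966) had the most similar courses over the 30 arrays.

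Il1r2, the decoy, fell early and was high at day 4. Its WT values were 10.78, 10.59 and 10.76 (day 0), 9.79, 9.60 and 9.48 (day 1), 9.92, 10.21 and 9.97 (day 2), 11.77, 11.19 and 11.79 (day 4), and 10.30, 9.89 and 9.84 (day 6). The D6-deficient values were 10.83, 10.97 and 10.21 (day 0), 9.18, 9.15 and 9.77 (day 1), 10.31, 10.31 and 10.06 (day 2), 11.20, 11.71 and 11.81 (day 4), and 9.87, 9.11 and 9.77 (day 6). The day-4 groups were the highest, then the day-0 groups, and the genotypes overlapped on every day. At day 1 the change was -1.09 (SE 0.22, adjusted p = 0.00087) in WT and -1.30 (SE 0.22, adjusted p = 7.5e-05) in D6-deficient skin, by day 4 it had become 0.87 (SE 0.22, adjusted p = 0.0028) and 0.90 (SE 0.22, adjusted p = 0.0019), and by day 6 -0.70 (SE 0.22, adjusted p = 0.025) and -1.09 (SE 0.22, adjusted p = 0.00064). Il1r2 thus moved against Il1b at day 1 and with it at day 4. The fall of -0.68 at day 2 in WT skin (adjusted p = 0.024) ended without WT day 0 replicate 1 (-0.65, adjusted p = 0.072) or replicate 3 (-0.66, adjusted p = 0.067), or WT day 2 replicate 1 (-0.62, adjusted p = 0.077) or replicate 3 (-0.65, adjusted p = 0.067). The WT day-6 call ended without WT day 0 replicate 1 (-0.66, adjusted p = 0.078) or replicate 3 (-0.67, adjusted p = 0.065), or WT day 6 replicate 2 (-0.64, adjusted p = 0.1) or replicate 3 (-0.61, adjusted p = 0.082). In D6-deficient skin at day 2 the change was -0.44 (SE 0.22, adjusted p = 0.12), past the threshold only without D6-deficient day 0 replicate 3 (-0.67, adjusted p = 0.027).

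The family came down from day 4 to day 6. In WT skin 7 of 10 members passed the test between these days (6 lower, 1 higher; 22.1% of all tested probe sets) and in D6-deficient skin 8 (7 lower, 1 higher; 31.4% of all). Il1b changed by -3.85 in WT (adjusted p = 7.2e-09) and -3.75 in D6-deficient skin (adjusted p = 5.1e-09), and Il33 changed by -3.18 (adjusted p = 1.3e-08) and -3.00 (adjusted p = 1.5e-08). Il1r1 and Il1r2 fell back in both genotypes, and Il18 was the member that rose, by 0.63 (adjusted p = 0.028) and 0.88 (adjusted p = 0.0019). Il1f6 and Il1f8 did not pass between these days and were still above day 0 at day 6 in both genotypes.

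Between genotypes on the same day, the members that passed the test were at day 0 and day 2. At day 0 there were 2 of 10 (Il1f6 and Il1rn, both higher in D6-deficient skin), where 1.57% of all tested probe sets passed, and at unadjusted p under 0.05 there were 5 (14.3% of all). At day 2 there were 3 (Il1b and Il33 higher, Il1a lower; 4.45% of all). At day 1 limma called 0 of 10 (0.0555% of all), at day 4 it called 0 (0.513% of all) and at day 6 it called 0 (0.125% of all); at unadjusted p under 0.05 these were 0, 2 and 0 (8.01%, 10% and 8.37% of all), and the t-test of the methods with its fold threshold also gave 0 on each of these days. As a mean over the 5 days, 2 members were higher in D6-deficient skin (5.52% of all): Il1b, given above, and Il1rn by 0.28 (SE 0.08, adjusted p = 0.0496), at the edge of the threshold. The other 2 probe sets of Il1rn gave 0.22 (adjusted p = 0.29) and 0.09 (adjusted p = 0.68) for this mean. Markers of other cells moved in it too. The 3 skeletal muscle genes were lower in D6-deficient skin: Myh4 (-0.94, adjusted p = 0.0036), Ckm (-0.47, adjusted p = 0.00055) and Acta1 (-0.27, adjusted p = 0.0087). Of the 8 neutrophil genes, the 5 with the largest differences were all higher and passed, from 0.82 (Lcn2) to 1.88 (Ngp). At day 0, Il1a, Il1b, Il18, Il1f6, Il1f8, Il1f9 and Il1rn had all 3 D6-deficient mice above all 3 WT mice, as did 10.8% of all tested probe sets (1.57% of all passed the test in either direction). At day 2, Il1b and Il33 had all 3 D6-deficient mice above WT, as did 10.4% of all tested probe sets. Il1a, Il18, Il1f6 and Il1f8 had all 3 below on that day, as did 11.9% of all. Without 1 array at a time the day-0 count was 0 or 1 and the day-2 count 2 or 3, as given for Il1rn, Il1f6 and Il1a. With only the arrays of the 2 groups in the fit, Il1f6 at day 0 (adjusted p = 0.12) and Il1a at day 2 (adjusted p = 0.066) did not pass, while Il1f6 (adjusted p = 0.014) and Il1f8 (adjusted p = 0.007) did at day 2.

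The changes from day 0 were compared between genotypes, a contrast that uses the same day-0 mice at each day. For day 2, 3 of 10 members passed, Il1a, Il1f6 and Il1f8, all with the smaller change in D6-deficient skin (5.40% of all tested probe sets), and 7 at unadjusted p under 0.05 (16.9% of all). For day 4 there was 1, Il1f6 (0.608% of all). For day 1 limma called 0 (0.0194% of all) and for day 6 it called 0 (0.0250% of all), with 5 members at unadjusted p under 0.05 on each day (9.70% and 8.01% of all) and 1 and 0 by the t-test of the methods. The median over the 10 members was -0.78 for day 1, -0.58 for day 2, -0.55 for day 4 and -0.64 for day 6; since the day-0 values enter each of these, they are not 4 independent results. With single arrays left out the day-2 count ran from 3 to 5 and the day-4 count from 0 to 2, with the arrays that end or add a call named under Il1f6, Il1f8, Il1f9, Il1b and Il33. With only the 4 groups compared in the fit, Il1f6 did not pass at day 4 (adjusted p = 0.16), while Il1f9 (adjusted p = 0.024) and Il18 (adjusted p = 0.016) did at day 2.

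**Figure D4:**
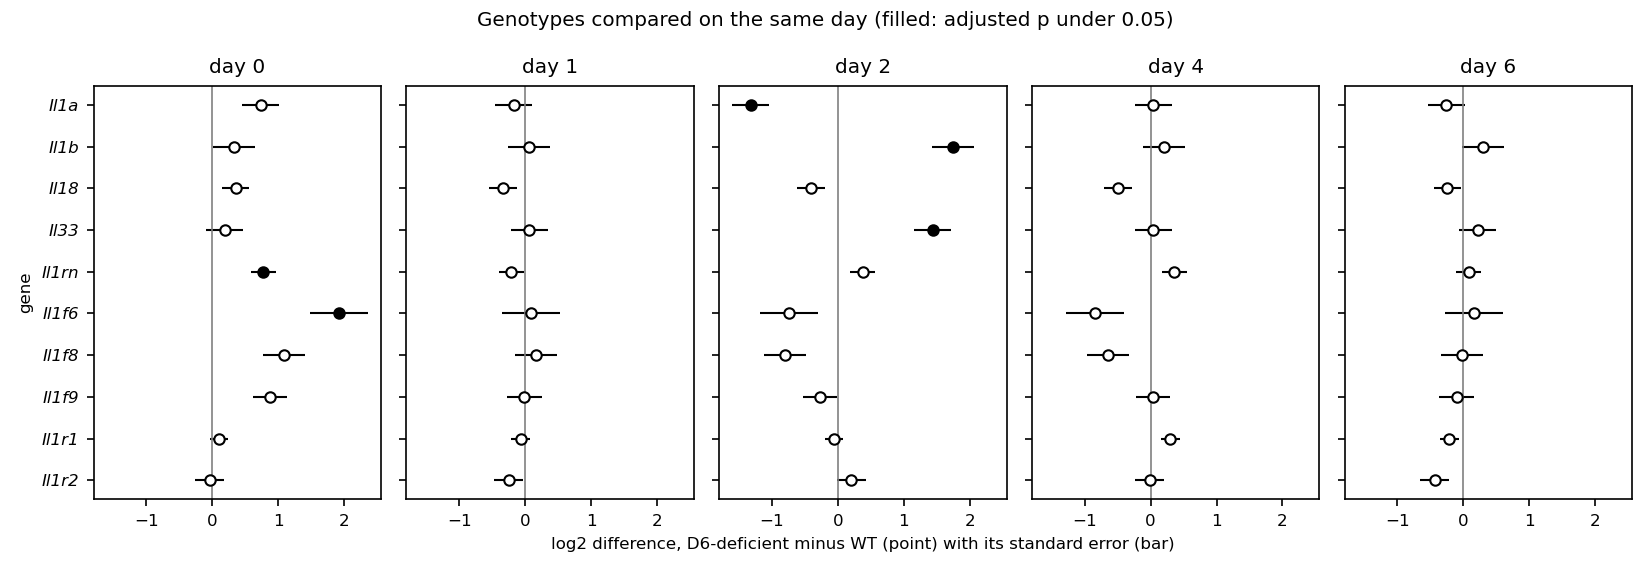
Difference between D6-deficient and WT skin (log2) for each member on each day, with its standard error, from 3 mice per group (filled points, adjusted p under 0.05).

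Other genes of the pathway were read beside the members. Of 3 further ligands and antagonists, Il1f5 followed Il1f6, with changes of 3.41 at day 2 and 2.30 at day 4 in WT skin and 1.91 and 0.81 in D6-deficient skin, and a difference in change of -1.50 at day 2 (adjusted p = 0.011) and -1.50 at day 4 (adjusted p = 0.049). Il1f10 went the other way, with changes of -0.85 (adjusted p = 0.032) at day 2 and -0.85 (adjusted p = 0.021) at day 4 in WT skin and -1.64 (adjusted p = 8.2e-05) and -1.62 (adjusted p = 7.2e-05) in D6-deficient skin. For Il18bp, which encodes the IL-18 binding protein, the D6-deficient level at day 2 exceeded that in WT by 1.70 (adjusted p = 3.7e-07), the day on which Il18 was below WT in all 3 mice. Of 8 further receptor genes 6 were tested, and Il18rap and Il1rap, which encodes the chain that IL-1R1 pairs with, were up at day 4, by 2.28 and 1.42 in WT and 2.47 and 1.39 in D6-deficient skin. Of all tested probe sets, 39.1% and 41.1% were called in these comparisons, and the rest of the receptor list is not described here. Of 14 genes of cytokine processing 11 were tested, with 5 called at day 4 in WT skin, all higher (39.1% of all tested probe sets were called), and 8 in D6-deficient skin (41.1% of all), 7 higher and 1 lower, Pycard (-0.54, adjusted p = 0.0018; difference in change -0.93, adjusted p = 0.02). There were 4 called between genotypes at day 2, all higher in D6-deficient skin (4.45% of all), among them Ctsg (1.19) and Nlrp3 (0.66). Of 15 signalling genes 3 were higher and 5 lower at day 4 in WT skin and 2 and 4 in D6-deficient skin, beside 39.1% and 41.1% of all tested probe sets called in these comparisons. Myd88, the shared adaptor, was up at day 4 by 1.60 in WT and 1.49 in D6-deficient skin.

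Most genes known to be induced by IL-1 were up at day 4, when Il1b and Il1r1 were high. Most were already up at day 2, when Il1r1 was near its day-0 level. Of 18 such genes, 14 rose at day 4 in WT skin (median 3.61; 17.3% of all tested probe sets rose) and 15 in D6-deficient skin (median 3.58; 18.8% of all), with Cxcl5 first in both (8.44 and 8.75), and Il6 at 6.32 and 6.58. At day 2 the counts were 14 (median 1.58; 11% of all) and 12 (median 1.91; 17.5% of all). Between genotypes at day 2 (4.45% of all called), 3 were higher in D6-deficient skin, Cxcl2 by 3.74, Cxcl5 by 2.81 and Ptgs2 by 2.35, as were Il1b and Il33, and 1 was lower, Ccl20 (-2.20), as was Il1a. At day 0 the only 1 of the 18 called between genotypes was S100a8, by 2.41 (adjusted p = 0.035; 1.57% of all called). Several of these genes are also made by neutrophils and respond to other cytokines, and which signal moved them was not tested.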

How the data were processed

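RNA of mouse back skin was measured on Affymetrix whole-genome mouse arrays, 30 in all, 3 per genotype and day. The deposited values are linear RMA intensities, made by the authors in GeneSpring (RMA version not given), and their log2 was taken here. After 64 control probe sets were left out of 45101, the 20% with the lowest mean (9008) were set aside and 36029 were tested. In limma 3.58.1 (R 4.3.3) 1 mean per group was fitted over all arrays, with empirical Bayes variances; p was adjusted by Benjamini-Hochberg over all tested probe sets in each comparison, and under 0.05 counted as passing. The same code was tested on simulated data. An exact permutation of 3 against 3 mice cannot go under 0.1. Values within a group varied with a median SD of 0.19. Arrays fall into 2 sets by spike-in level (13 and 17), tried as a covariate. Members and lists were chosen with earlier results of these data known. Marker levels are log2 of summed intensities. Alternatives were other filters, centring, the mean of a gene's probe sets, a replicate block, only the arrays of a comparison, a variance trend, the methods' t-test with its 3-fold threshold, and leaving out each array. Tables and figures were made in Python 3.11.15 with matplotlib 3.10.9.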

Additional observations from a re-analysis of the deposited data

Results flagged for a closer look

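The change from day 0 differed between the genotypes, by the test of the difference itself, for Il1a at day 2 (-2.05), Il1f6 at day 2 (-2.66) and at day 4 (-2.75), and Il1f8 at day 2 (-1.88), each smaller in D6-deficient skin. The day-2 differences held with each array left out, and that of Il1f6 at day 4 did not hold without any 1 of 8 arrays. All use the same day-0 mice, among which the D6-deficient mice were above the WT mice for each of these genes.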

How the results depend on the processing

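Of 170 single-member results, 66 past the threshold, 0 turned direction under any setting. No filter, centred arrays, the replicate block (8 members at WT day 1, as without it), the spike-in covariate and the variance trend changed 0 of them. Same replicate numbers did not behave as pairs (median correlation of deviations -0.01, from -0.352 to 0.481). With a 3-fold threshold added to the adjusted p, members past it were 6 at day 2 and 7 at day 4 in WT skin (1.9% and 3.24% of all tested probe sets). In D6-deficient skin at day 2 they were 6 (3.27% of all). They were 4 at day 1 and 3 at day 6 in WT skin, 3 at day 1, 5 at day 4 and 0 at day 6 in D6-deficient skin, and 1 between genotypes at day 0 and 1 at day 2 (of all tested probe sets 1.77%, 1.34%, 2.49%, 4.01%, 2.13%, 0.122% and 0.572%). The methods' t-test, unadjusted with 3-fold, gave the same 4, 3, 3, 5, 0, 1 and 1, and 1 and 2 for the difference in change at days 1 and 4; after Benjamini-Hochberg it gave 0 for WT day 6, D6-deficient day 6, genotypes at day 0 and day 2, and the difference in change at day 4. With only the arrays of a comparison the counts were 1 between genotypes at day 0, and 5 and 0 for the difference in change at days 2 and 4; with the mean of probe sets, 1 at day 0. Without 1 array at a time, counts ran from 8 to 8, 7 to 8, 9 to 9 and 4 to 6 in WT skin at days 1, 2, 4 and 6, from 5 to 6, 6 to 8, 7 to 9 and 2 to 4 in D6-deficient skin, from 0 to 1 and 2 to 3 between genotypes at days 0 and 2 and 0 to 0 on the other days, and from 0 to 0, 3 to 5, 0 to 2 and 0 to 0 for the difference in change. The cause of these changes was not tested beyond the fold threshold and fewer arrays that the settings themselves set. Probe sets near the lower end of the scale, such as the second one of Il1r1 (mean 2.81), hold little signal over background.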
